A study of Mus musculus with 12 samples.

Results

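The mitochondrial ribosomal protein genes were taken as every mouse gene symbol that begins with Mrpl or Mrps followed by a digit. The gene table held 84 such symbols. Of these, 78 had probes on the array and all 78 were tested, 49 named for the large subunit (Mrpl) and 29 for the small subunit (Mrps), among 25321 genes tested in all. The other 6 symbols, Mrpl23-ps1, Mrpl27-ps, Mrpl48-ps, Mrps36-ps1, Mrps36-ps2 and Mrps36-ps3, are pseudogenes with no transcript accession in the table, so no probe could be assigned to them. C57/Bl6 mice gave the RNA, extracted from a piece of left ventricle and read in 1 colour on 12 arrays, 3 for each of 4 groups. The groups were wild-type mice after a sham operation, wild-type mice after transverse aortic constriction (TAC, a band on the aorta that makes the left ventricle pump against a higher pressure), and mice overexpressing CnAb1, a splice variant of the calcineurin catalytic subunit Ab, after either operation. By the source names and the protocol hearts were collected 21 days after surgery, while the time entry of the sham samples reads 0. The promoter that drives the transgene, the number of founder lines, and the age of the mice were not given in the sources used here. Nothing in the labels says that the 3 arrays of a group came from 3 separate mice, and every p-value below therefore measures spread between arrays, part of which may be technical.

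Mitochondria carry their own genome, and the few proteins it encodes are nearly all core subunits of the respiratory chain. They are made inside the organelle by a dedicated ribosome, the mitoribosome, whose RNA comes from the mitochondrial genome and whose proteins are all encoded in the nucleus, made in the cytosol and imported. The small subunit binds the messenger RNA and decodes it, while the large subunit joins the amino acids and passes the new chain towards the inner membrane. Some mitoribosomal proteins descend from bacterial ribosomal proteins and others were added during the evolution of mitochondria. Heart muscle is among the tissues richest in mitochondria, and inherited defects in several of these genes cause cardiomyopathy.

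Levels are given as log2 of the array's processed signal minus the 75th percentile of that array, so a level of 0 is that percentile. One probe, the brightest, stands for each gene, and levels of different genes are not compared with each other because each probe has its own brightness. Group differences and their standard errors are on the log2 scale from 1 limma model over the 12 arrays, and a gene was called when its p-value, adjusted with Benjamini-Hochberg over all 25321 genes, was under 0.05. Of the 78 genes, 77 were well above background on all 12 arrays and none was saturated. The exception, Mrpl21, was well above background on 2 wild-type sham arrays, 1 wild-type TAC array, 1 transgenic sham array and 0 transgenic TAC arrays. None of its fitted differences was called.

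Because the results below describe genes whose levels varied together, the DNA just upstream of some of them is shown first. RefSeq promoter windows of the assembly GRCm38.p6, each running from 250 bases before to 50 bases after an annotated start, were available for 69 of the 78 genes. The first 4 sequences are the 250 bases before the start of Mrpl28, Mrpl39 and Mrpl37, which fell in banded wild-type hearts and differed in their response between the genotypes, and of Mrpl20, whose difference was nearest to 0. Each is written 5′ to 3′ on the gene's own strand, with capitals marking any match on either strand to the 10-base palindrome bound by nuclear respiratory factor NRF1 (the capitals in Mrpl39), to CCGGAAG (an ETS motif, read by the GA-binding protein), AAGATGGC (YY1) or CACGTG (an E-box, read by Myc among others).

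Mrpl28 (chr17:26123253-26123502, plus strand): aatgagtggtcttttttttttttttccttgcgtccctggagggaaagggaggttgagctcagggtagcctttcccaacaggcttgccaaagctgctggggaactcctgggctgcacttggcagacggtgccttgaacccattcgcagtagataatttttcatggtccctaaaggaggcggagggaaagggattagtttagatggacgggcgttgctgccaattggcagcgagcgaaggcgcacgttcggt

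Mrpl39 (chr16:84735245-84735494, minus strand): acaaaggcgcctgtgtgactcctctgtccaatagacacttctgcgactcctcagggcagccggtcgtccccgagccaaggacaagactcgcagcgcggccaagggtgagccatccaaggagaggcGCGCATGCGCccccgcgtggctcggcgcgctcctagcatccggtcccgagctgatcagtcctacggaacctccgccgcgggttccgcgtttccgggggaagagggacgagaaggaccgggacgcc

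Mrpl37 (chr4:107066867-107067116, minus strand): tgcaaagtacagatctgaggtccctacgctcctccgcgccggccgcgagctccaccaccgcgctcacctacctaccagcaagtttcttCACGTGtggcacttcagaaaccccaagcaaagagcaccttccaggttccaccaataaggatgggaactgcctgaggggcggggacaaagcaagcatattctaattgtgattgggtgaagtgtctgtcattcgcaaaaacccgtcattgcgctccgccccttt

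Mrpl20 (chr4:155802628-155802877, plus strand): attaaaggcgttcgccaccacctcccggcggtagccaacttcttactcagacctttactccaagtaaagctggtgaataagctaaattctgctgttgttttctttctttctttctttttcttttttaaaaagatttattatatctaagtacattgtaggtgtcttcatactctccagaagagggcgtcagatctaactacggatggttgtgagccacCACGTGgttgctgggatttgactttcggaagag

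In these windows Mrpl39 held the NRF1 letters, Mrpl37 and Mrpl20 held the E-box, and Mrpl28 held none of the 4 motifs before its start. Short stretches of 22 to 24 bases with the match in capitals are shown next, first for the ETS letters in 5 genes whose levels are described further on and then for the YY1 letters in 3 genes.

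Mrpl58 (chr11:115403727-115403749, plus strand): gcggaccgCCGGAAGagtgagca

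Mrps22 (chr9:98601676-98601698, minus strand): ctctcgagCCGGAAGttgctcta

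Mrpl3 (chr9:105053241-105053263, plus strand): gaaacggaCCGGAAGtggcccgg

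Mrps18a (chr17:46110970-46110992, plus strand): cccctgctCCGGAAGcggaagtg

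Mrpl33 (chr5:31613940-31613962, plus strand): cgcatgccCCGGAAGtagtcgtt

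Mrps24 (chr11:5707652-5707673, minus strand): gccggcccAAGATGGCgtggtc

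Mrpl37 (chr4:107066825-107066848, minus strand): cacgggcaAAGATGGCggcgtcca

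Mrpl42 (chr10:95501907-95501930, minus strand): attgaagcAAGATGGCgagcgcgc

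The ETS letters stood in 34.7% of the 75 windows of these genes and in 8.86% of all 32851 windows in the table. For the YY1 letters the shares were 16% and 2.75%, with 8 of the 12 matches lying after the start, and for the NRF1 letters 4% and 0.971%, from the genes Mrpl9, Mrpl32 and Mrpl39. The E-box stood in 9.33% of these windows against 7.15% of all, but Mrpl2 entered with 3 overlapping windows that share 1 match. Counted by gene, the E-box was in 5 of 69 (7.25%) against 8.09% of all genes with a window. In banded wild-type hearts the median log2 difference was -0.40 over the 26 genes with the ETS letters, of which 11 were called lower, and -0.50 over the 43 without, of which 30 were. The medians for the YY1 letters were -0.47 over 12 genes with them and -0.48 over 57 without. These are descriptions of letters in a window, and no binding was measured.

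Mrpl46 and Mrps11, a large-subunit and a small-subunit gene, are the only pair of these genes that neighbour each other in the gene table, and they start 41 bases apart in opposite directions. The bases between the starts, on the Mrps11 strand, are shown because any sequence there lies upstream of both genes.

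Mrpl46-Mrps11 (chr7:78783090-78783130, plus strand): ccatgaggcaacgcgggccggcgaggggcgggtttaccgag

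None of the 4 motifs lay in that stretch. Both genes were called lower in banded wild-type hearts, with differences of -0.58 ± 0.16 for Mrpl46 (adjusted p = 0.0315) and -0.36 ± 0.11 for Mrps11 (adjusted p = 0.0475).

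The arrays were first compared over the 78 genes at once, taking each gene's level minus its mean over the 12 arrays. The median of these deviations was 0.21, 0.21 and 0.25 on the wild-type sham arrays and -0.20, -0.05 and -0.45 on the wild-type TAC arrays. On the transgenic arrays it was -0.14, -0.12 and 0.12 after sham and 0.03, -0.0015 and 0.11 after TAC. The wild-type sham arrays were thus the highest of all 12 and close to each other, the third wild-type TAC array was the lowest, and the transgenic arrays lay between these. The second wild-type TAC array stood above the first and second transgenic sham arrays, and the third transgenic sham array stood above the other two of its group. Levels above the gene's own mean were found for 73, 78 and 73 of the 78 genes on the wild-type sham arrays and for 0, 27 and 0 on the wild-type TAC arrays. In the transgenic hearts these numbers were 10, 13 and 62 after sham and 50, 38 and 66 after TAC.

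**Figure D1:**
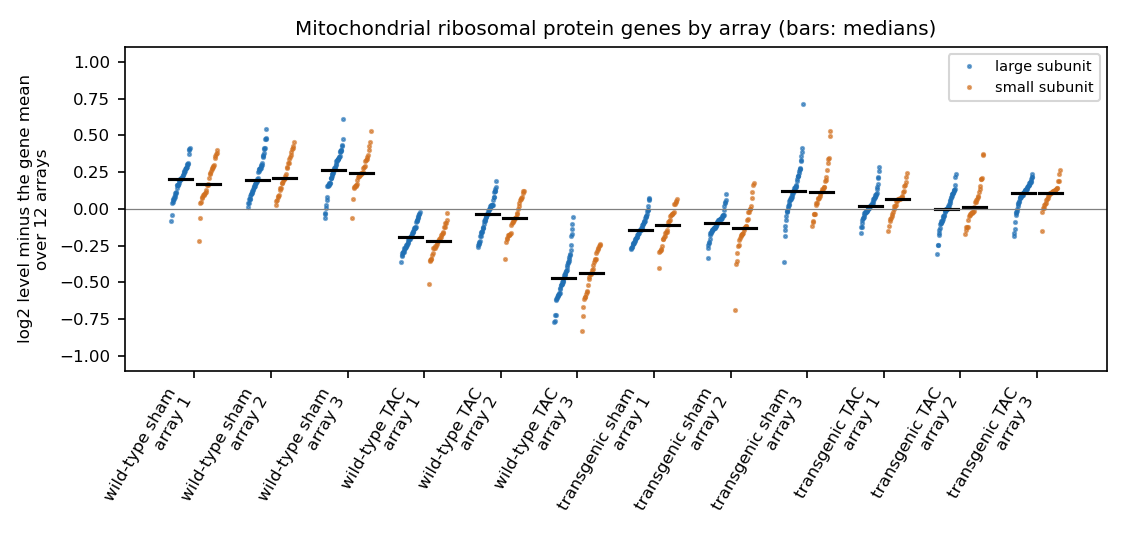
Each point is 1 of 77 mitochondrial ribosomal protein genes (Mrpl21 left out) on 1 array, as its log2 level minus its mean over the 12 arrays, with large-subunit genes in blue, small-subunit genes in orange and black bars at the medians. Medians over all the genes run from 0.21 to 0.25 on the wild-type sham arrays and from -0.45 to -0.05 on the wild-type TAC arrays. On each array the medians of the 2 subunits lie close to each other.

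The 77 genes varied together across the arrays. Of 2926 pairs of genes, 2921 had a correlation above 0 over the 12 arrays, with a median Pearson r of 0.78, and a single component held 77.7% of the variance of the deviations. The arrays are shared by every pair, so this describes these arrays and has no p-value. The correlations include the differences between the groups, and they were not computed for other gene lists. Medians of the same deviations over respiratory chain genes ran from 0.32 to 0.40 on wild-type sham and from -0.49 to -0.26 on wild-type TAC arrays. On the transgenic arrays they ran from -0.11 to 0.08. With the median of all the genes, Mrpl20 (r = 0.395), Mrps18b (r = 0.47) and Mrpl33 (r = 0.497) were the 3 genes that correlated at less than 0.5. Mrpl20 and Mrpl33 are homologues of bacterial large-subunit proteins, and Mrps18b is 1 of 3 mitochondrial relatives of bacterial S18. Among 9303 genes outside the set, those most like its median over the 12 arrays were Eci2 (r = 0.990), an enzyme of fatty acid oxidation, Uqcc1 (r = 0.988), an assembly factor of respiratory complex III, Apip (r = 0.983), an enzyme of methionine salvage, Aars2 (r = 0.982), the mitochondrial alanyl-tRNA synthetase, and Osgep (r = 0.976), a tRNA-modifying enzyme.

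Some features of the whole series touch every value. The 12 arrays sat on 5 slides, and no group was confined to 1 slide, but slide and group were partly confounded. Slides 1, 4 and 5 each held arrays of a single group. Slide 2 held no wild-type sham array and slide 3 no transgenic TAC array. Wild-type TAC arrays were brighter before scaling, with 75th percentiles of 9.88 to 9.95 on the log2 scale against 8.97 to 9.24 for the wild-type sham arrays and 9.48 to 9.86 for the transgenic arrays. On the second transgenic sham array 37.2% of probes were well above background, against 60.3% to 78.2% on the others. The probe for Ppp3cb, the gene of calcineurin Ab, read 1.17 to 1.40 in transgenic sham and 1.56 to 1.63 in wild-type sham hearts, and since no source used here says whether it can read the transgene, it does not check the labels. Cell type markers moved too. All 12 cardiomyocyte markers were well above background on every array. In wild-type hearts 10 of them were called lower after TAC, and their summed signal, in units of the array's 75th percentile, ran from 4130 to 4320 after sham and from 2340 to 2740 after TAC. It ran from 2900 to 3330 in transgenic sham hearts and from 2640 to 3240 in transgenic TAC hearts. The 11 fibroblast markers summed to 102 to 163, 353 to 527, 174 to 189 and 167 to 212 in the same order of groups, with 9 of 11 called higher by TAC in wild-type hearts. The part of these shifts in the results below was not tested, and in a piece of tissue fewer cells of a type and less RNA per cell cannot be told apart.

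The first comparison asks what banding did to the mitochondrial ribosome in wild-type hearts. All 78 genes had a lower mean after TAC than after sham. Of them 45 were called lower and none higher, where 12.5% of all genes tested were called lower and 8.7% higher. The median difference was -0.48, with an interquartile range from -0.58 to -0.36, against a median of -0.13 over all genes. The arrays of the 2 groups did not overlap for 69 genes (88.5%), compared with 46.8% of all genes. Among 12316 genes with signal well above background on every array, 62% did not overlap, 2516 were called lower and 1347 higher. The 45 called mitochondrial ribosomal protein genes lay between -0.82 and -0.36, with standard errors of 0.10 to 0.17 and adjusted p from 0.00261 to 0.0484. At the other end, Mrpl19, Mrpl20, Mrpl3, Mrpl33, Mrpl43, Mrpl53, Mrpl57, Mrps18b and Mrps6 were the 9 genes whose groups overlapped.

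**Figure D2:**
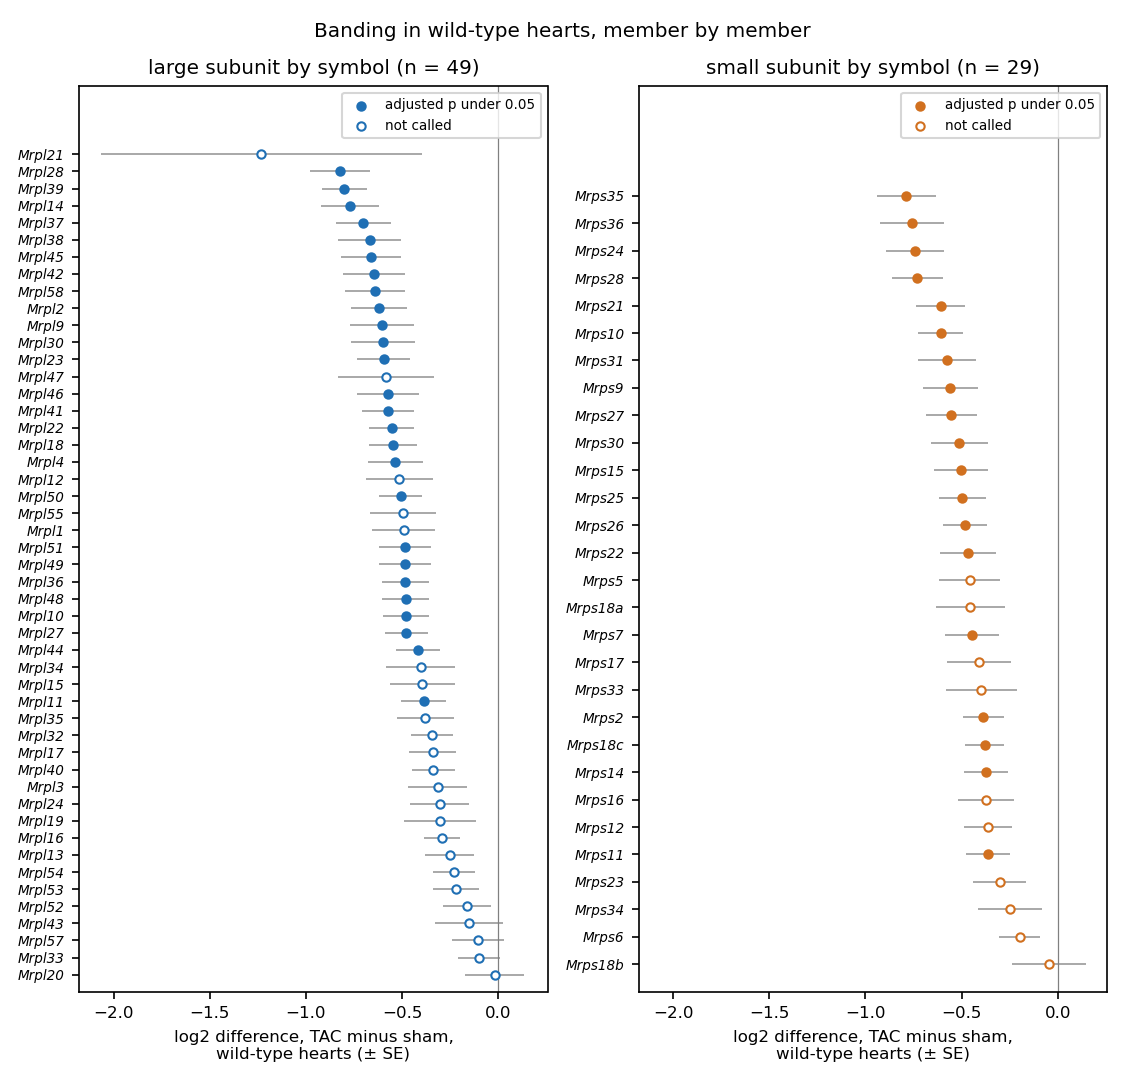
Log2 difference between TAC and sham in wild-type hearts for each of the 78 genes, with its standard error, large-subunit genes on the left and small-subunit genes on the right, each ordered by size, filled circles where the adjusted p is under 0.05. All points lie below 0. Mrpl21, at the top left, was not well above background on most arrays and has the widest bar.

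Among large-subunit genes 26 of 49 were called. The lowest of these was Mrpl28, a homologue of bacterial L28. Its level was 3.44, 3.44 and 3.64 on the wild-type sham arrays and 2.82, 2.78 and 2.45 on the wild-type TAC arrays. Every TAC array lay well below every sham array, a difference of -0.82 ± 0.16 (adjusted p = 0.00647). Mrpl39, a protein specific to mitochondria, read 3.74, 3.82 and 3.76 after sham and 3.09, 3.08 and 2.75 after TAC. The 3 sham arrays lay close together, and the difference was -0.80 ± 0.12 (adjusted p = 0.00261), the smallest p-value of the 78 genes. Mrpl14, a core protein near the interface with the small subunit, read 6.02, 6.09 and 5.99 after sham and 5.30, 5.39 and 5.10 after TAC, again without overlap (-0.77 ± 0.15, adjusted p = 0.00743). Mrpl37, another mitochondria-specific protein, read 1.31, 1.15 and 1.43 after sham and 0.71, 0.81 and 0.27 after TAC. Here the third TAC array stood lowest, and the difference was -0.70 ± 0.14 (adjusted p = 0.00835).

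Large-subunit genes with other known roles followed. Mrpl58, a peptidyl-tRNA hydrolase that frees stalled chains and is also built into the large subunit, read 4.51, 4.66 and 4.54 after sham and 3.95, 4.12 and 3.71 after TAC. It fell, by a difference of -0.64 ± 0.16 (adjusted p = 0.0184), with no overlap. Mrpl12, the stalk protein that recruits translation factors and that also binds the mitochondrial RNA polymerase, read 5.59, 5.58 and 5.42 after sham and 4.95, 5.34 and 4.77 after TAC. The second TAC array came close to the sham arrays, and the difference of -0.51 ± 0.18 was not called (adjusted p = 0.065). Mrpl44 and Mrpl3 are both genes in which inherited defects cause hypertrophic cardiomyopathy. Mrpl44 read 2.50, 2.63 and 2.59 after sham and 2.17, 2.33 and 1.96 after TAC and was called lower (-0.42 ± 0.11, adjusted p = 0.0267). Mrpl3 read 3.86, 3.89 and 3.94 after sham and 3.54, 3.91 and 3.29 after TAC, where the second TAC array lay among the sham arrays, and was not called (-0.31 ± 0.15, adjusted p = 0.185). Mrpl45, which anchors the exit of the ribosome at the inner membrane, was called lower (-0.66 ± 0.16, adjusted p = 0.0162).

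The differences nearest to 0 belonged to Mrpl20, Mrps18b, Mrpl33 and Mrpl57. Mrpl20 read 4.43, 4.56 and 4.46 after sham and 4.44, 4.54 and 4.42 after TAC in wild-type hearts, a difference of -0.02 ± 0.15. Mrpl33 read 6.22, 6.31 and 6.12 after sham and 6.07, 6.18 and 6.10 after TAC, a difference of -0.10 ± 0.11. In both genes the groups overlapped. Mrpl57 differed by -0.11 ± 0.13. None of these was called, with adjusted p of 0.953, 0.588 and 0.648.

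Among small-subunit genes 19 of 29 were called lower. Mrps35, a mitochondria-specific protein, was lowest. It read 2.90, 2.97 and 2.96 on the wild-type sham arrays and 2.23, 2.43 and 1.81 on the wild-type TAC arrays. The sham arrays were tight, the TAC arrays were spread, and no TAC array reached them (-0.79 ± 0.15, adjusted p = 0.00699). Mrps24, a homologue of bacterial S3 at the entry of the messenger RNA channel, read 3.71, 3.73 and 3.87 after sham and 3.15, 3.26 and 2.68 after TAC (-0.74 ± 0.15, adjusted p = 0.00818). Mrps28, a gene of inherited mitochondrial disease, read 4.91, 4.92 and 4.84 after sham and 4.21, 4.35 and 3.91 after TAC (-0.73 ± 0.13, adjusted p = 0.0055). Again the third TAC array was the lowest in each gene, and no groups overlapped. Mrps10 read 2.57, 2.74 and 2.75 after sham and 1.94, 2.12 and 2.17 after TAC (-0.61 ± 0.12, adjusted p = 0.0067), and here the first TAC array was the lowest. Mrps22, in which inherited defects cause cardiomyopathy, read 1.46, 1.49 and 1.57 after sham and 1.06, 1.24 and 0.82 after TAC and was called with a larger p-value (-0.47 ± 0.15, adjusted p = 0.0473). Mrps12, the homologue of bacterial S12 in the decoding centre, read 4.38, 4.40 and 4.32 after sham and 3.96, 4.21 and 3.83 after TAC. Its groups did not overlap, and the difference of -0.36 ± 0.12 was not called (adjusted p = 0.0627).

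The 3 relatives of bacterial S18 were called in 1 case. Mrps18c, which takes the place of S18 in the small subunit, read 3.17, 3.21 and 3.28 after sham and 2.88, 2.84 and 2.80 after TAC and was called lower (-0.38 ± 0.10, adjusted p = 0.0248). Mrps18a, found in the large subunit despite its name, read 4.08, 4.10 and 4.25 after sham and 3.66, 3.93 and 3.47 after TAC. Those groups did not overlap, and the difference of -0.45 ± 0.18 was not called (adjusted p = 0.105). Mrps18b read 3.62, 3.89 and 3.77 after sham and 3.74, 3.90 and 3.49 after TAC, with overlapping groups and a difference of -0.05 ± 0.19 (adjusted p = 0.899). Whether the 3 relatives differ in their response was not tested.

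A further 2 genes carry a small-subunit symbol without being small-subunit proteins. Mrps30 is built into the large subunit. It read 3.16, 3.12 and 3.17 after sham and 2.65, 2.92 and 2.35 after TAC and was called lower (-0.51 ± 0.15, adjusted p = 0.0366). Mrps36 is a subunit of the oxoglutarate dehydrogenase complex of the citric acid cycle rather than of the mature mitoribosome. It read 4.66, 4.66 and 4.84 after sham and 4.04, 4.29 and 3.55 after TAC, without overlap, among the largest falls of the set (-0.76 ± 0.17, adjusted p = 0.0116).

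The size of the count rested on single arrays, and the direction did not. Leaving out the third wild-type TAC array left 12 genes called lower and a median of -0.365 (the median with all arrays was -0.48). Without a wild-type sham array 18, 20 and 16 genes were called, in the order of the arrays, and without the first wild-type TAC array 26. The share of all genes called lower moved too, from 12.5% with all arrays to 6.26% without the third wild-type TAC array. It was 6.43%, 7.78% and 7.55% without a wild-type sham array and 8.74% without the first wild-type TAC array. On the 1 slide that carried both groups, with 1 TAC and 2 sham arrays, the median difference was -0.25 and 72 of 78 genes lay below 0, beside -0.17 over all genes. That TAC array was the second, the highest of its group. With slide as a fixed term in the model none of the 78 genes was called, where 0.944% of all genes were called lower. The median of the 78 was then -0.34. With slide as a random block 41 were called lower, where 13.1% of all genes were, and the median was -0.44. The count was 16 with quantile normalization, 19 with scaling to the array median, 10 with normexp background correction and 28 in a fit of the 2 groups alone. Under these settings 7.88%, 8.78%, 3.51% and 13.9% of all genes were called lower, in the same order. The count was 57 over probes well above background on all 12 arrays, 54 with a trended robust variance and 50 in an unmoderated test, where 28.2%, 14.6% and 13.3% of all genes were called lower. All medians stayed below 0. Normexp moved the median of all genes from -0.126 to 0.25, and the median of the 78 genes was then -0.64.

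The next comparison asks the same of hearts that overexpress CnAb1. No gene of the 78 was called in either direction when transgenic TAC was set against transgenic sham, and the same was true of all genes tested (0% called higher and 0% lower). At an unadjusted p under 0.05 limma gave 2 of the 78 and 1575 of all genes, and none of the other tests or scalings that were run called any of the 78. The median difference was 0.09, with 59 genes above 0 and 19 below, beside -0.01 over all genes. The groups did not overlap for 11 genes (14.1%), beside 8.44% of all genes and 10.1% of the 12316 well above background on all 12 arrays.

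Mrpl28 read 3.02, 2.70 and 2.67 on the transgenic sham arrays and 3.31, 2.92 and 3.14 on the transgenic TAC arrays, a difference of 0.33 ± 0.16 with overlap. Mrps33, a mitochondria-specific small-subunit protein, read 4.38, 3.85 and 4.60 after sham and 4.70, 4.63 and 4.68 after TAC, the largest difference of the set (0.39 ± 0.18, adjusted p = 0.797). Its second sham array stood far below the others, and no TAC array overlapped. Mrps10 read 2.50, 2.34 and 2.34 after sham and 2.58, 2.83 and 2.58 after TAC (0.27 ± 0.12), and Mrpl18, a homologue of the bacterial protein that binds 5S ribosomal RNA, read 3.63, 3.55 and 3.50 after sham and 3.94, 3.76 and 3.78 after TAC (0.26 ± 0.12). In both the TAC arrays lay above the sham arrays. Mrpl44 read 2.14, 2.19 and 2.31 after sham and 2.40, 2.33 and 2.40 after TAC (0.16 ± 0.11), a small step without overlap. Apart from Mrpl21, the lowest differences were those of Mrpl47 (-0.18 ± 0.25), Mrps17 (-0.15 ± 0.17), Mrpl15 (-0.10 ± 0.17) and Mrpl33 (-0.09 ± 0.11).

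Some genes that fell in wild-type hearts showed small differences here. Mrpl39 read 3.40, 3.21 and 3.37 after sham and 3.31, 3.19 and 3.34 after TAC in transgenic hearts, and Mrps28 read 4.46, 4.45 and 4.66 after sham and 4.44, 4.37 and 4.62 after TAC. Mrpl58 read 4.12, 4.12 and 4.61 after sham and 4.22, 4.12 and 4.30 after TAC. In these 3 genes the transgenic groups overlapped, with differences of -0.05, -0.05 and -0.07. Mrpl12 and Mrpl3 also overlapped, at 4.95, 5.14 and 5.49 against 5.18, 4.97 and 5.20 for Mrpl12 and 3.64, 3.64 and 3.92 against 3.95, 3.86 and 3.91 for Mrpl3. One transgenic sham and 1 transgenic TAC array shared a slide, and between those 2 the median difference was 0.23, with 73 of 78 genes higher after TAC. They were the sham array with the lowest and the TAC array with the highest median of their groups. With slide as a fixed term the median was 0.30. Leaving out the third transgenic sham array, the highest of its group for 66 of 77 genes, gave a median of 0.18, and leaving out the first gave 0.0323. The median was 0.017 with scaling to the array median and 0.0349 with normexp.

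**Figure D3:**
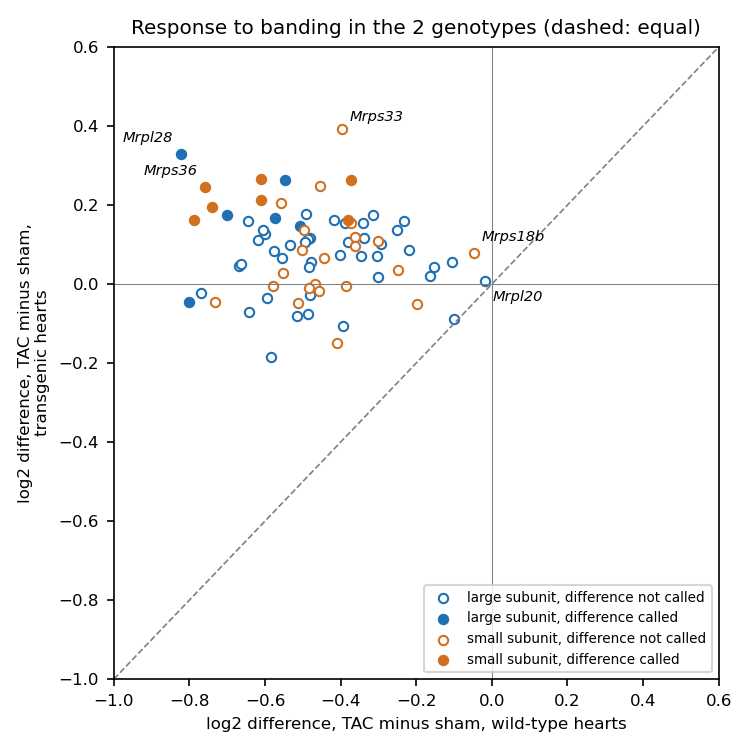
Log2 difference between TAC and sham in wild-type hearts (x axis) and in transgenic hearts (y axis) for 77 genes, filled where the difference between the 2 responses has an adjusted p under 0.05. All 77 points lie left of 0 on the x axis, and all lie above the dashed line of equal response, with Mrpl33 and Mrpl20 nearest to it.

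The effect of the transgene without banding was read from transgenic sham against wild-type sham hearts. No gene of the 78 was called, where 0.663% of all genes were called lower and 0.774% higher. Of the 78 genes 70 had a lower mean in transgenic hearts, with a median of -0.27 beside -0.05 over all genes. The arrays did not overlap for 45 (57.7%), against 22.2% of all genes and 32.8% of the 12316 well above background on all 12 arrays. At an unadjusted p under 0.05 limma gave 31 of the 78 and 4424 of all 25321 genes. The count called lower reached 11 when only probes well above background on all 12 arrays were tested, 7 with a trended robust variance and 2 in an unmoderated test, settings under which 6.27%, 2.52% and 1.53% of all genes were called lower. The median was closer to 0 under quantile normalization (-0.142) and scaling to the array median (-0.164).

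Mrpl28 had the smallest p-value. Its transgenic sham arrays (3.02, 2.70 and 2.67) all lay below its wild-type sham arrays (3.44, 3.44 and 3.64), a difference of -0.71 ± 0.16 (adjusted p = 0.0587). Mrpl50, specific to mitochondria, read 2.36, 2.34 and 2.36 in transgenic sham and 2.82, 2.88 and 2.81 in wild-type sham hearts (-0.49 ± 0.11, adjusted p = 0.0693). Mrps9, a homologue of bacterial S9, read 2.24, 2.09 and 2.37 in transgenic sham and 2.83, 2.90 and 2.78 in wild-type sham hearts (-0.60 ± 0.14, adjusted p = 0.0738). In these genes no transgenic sham array reached the wild-type range. Mrps24 read 3.18, 3.13 and 3.25 in transgenic sham hearts (-0.58 ± 0.15), Mrps35 2.43, 2.34 and 2.57 (-0.50 ± 0.15) and Mrpl37 1.03, 1.03 and 1.04 (-0.27 ± 0.14), all below their wild-type sham arrays. Mrpl14 (-0.45 ± 0.15), Mrpl39 (-0.45 ± 0.12) and Mrps33 (-0.53 ± 0.18) were also among the lowest. Of the 8 genes above 0, Mrpl21 among them, Mrps18b was highest of those above background, at 3.55, 3.81 and 4.33 in transgenic sham hearts (0.14 ± 0.19), followed by Mrpl20, at 4.28, 4.47 and 4.91 (0.07 ± 0.15), and Mrps17, at 3.18, 3.20 and 3.73 (0.06 ± 0.17). In each of these 3 the third transgenic sham array was the highest and the groups overlapped. On the slide that held 1 transgenic and 2 wild-type sham arrays the median difference was -0.31, with 73 of 78 genes below 0, and that transgenic array was the second, the one with 37.2% of probes well above background. The cardiomyocyte markers had a median of -0.42 in this comparison, with all 12 below 0 and 1 called, 10 of 11 fibroblast markers lay above 0, at a median of 0.60 and with none called (7 at an unadjusted p under 0.05), and their part in the result was not tested.

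In banded hearts the order of the genotypes was the other way round. The transgenic mean was above the wild-type mean for 77 of the 78 genes, with a median of 0.29 beside 0.05 over all genes. The arrays did not overlap for 40 genes (51.3%), compared with 32.9% of all genes and 43.3% of the 12316 well above background on all 12 arrays. Mrpl37 and Mrps10 were called higher in transgenic hearts and none lower, which is 2 of 78 where 2.14% of all genes were called higher and 1.86% lower. Of those 12316 genes 423 were called higher and 318 lower.

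Mrpl37 read 1.25, 1.17 and 1.21 on the transgenic TAC arrays, tight and above all of its wild-type TAC arrays (0.71, 0.81 and 0.27), a difference of 0.61 ± 0.14 (adjusted p = 0.0467). Mrps10 read 2.58, 2.83 and 2.58 against 1.94, 2.12 and 2.17, again without overlap (0.59 ± 0.12, adjusted p = 0.029). The calls were not held under every setting. None of the 78 genes was called with normexp, with scaling to the array median, with no filter, with slide as a fixed term or in a fit of the 2 groups alone, while 17 were called over probes well above background on all 12 arrays and 9 with a trended robust variance, where 12.5% and 4.98% of all genes were called higher. The settings without a call had 0.0869% to 1.16% of all genes called higher. Leaving out the first wild-type sham array, the first or the third wild-type TAC array or any transgenic TAC array also left 0 of the 78 called. In those fits 0.411% to 1.18% of all genes were called higher. Mrps36 read 4.62, 4.49 and 4.52 in transgenic TAC hearts (0.59 ± 0.17, adjusted p = 0.0771). Mrps22 read 1.36, 1.62 and 1.68 (0.52 ± 0.15, adjusted p = 0.0775) and Mrpl30, a homologue of bacterial L30, read 5.25, 5.16 and 5.28 against 4.89, 4.97 and 4.33 (0.50 ± 0.17, adjusted p = 0.116). In all 3 the transgenic arrays lay above the wild-type arrays without passing the test. Mrpl33 was the 1 gene below 0, at 6.03, 6.14 and 6.13 in transgenic TAC hearts (-0.02 ± 0.11). Among genes above background, Mrpl57 (0.03), Mrps12 (0.04), Mrpl16 (0.06), Mrps23 (0.06) and Mrps34 (0.09) were next above it. Mrps12, for example, read 4.05, 3.92 and 4.15 in transgenic TAC hearts, overlapping its wild-type TAC arrays. Within the slide that held 1 transgenic and 2 wild-type TAC arrays all 78 genes were higher in the transgenic array, with a median of 0.41 beside 0.12 over all genes. Those 2 wild-type arrays were the lower ones of their group. The cardiomyocyte markers had a median of 0.25 here with none of 12 called (5 at an unadjusted p under 0.05), 6 of 11 fibroblast markers were called lower, and their part in the result was not tested.

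**Figure D4:**
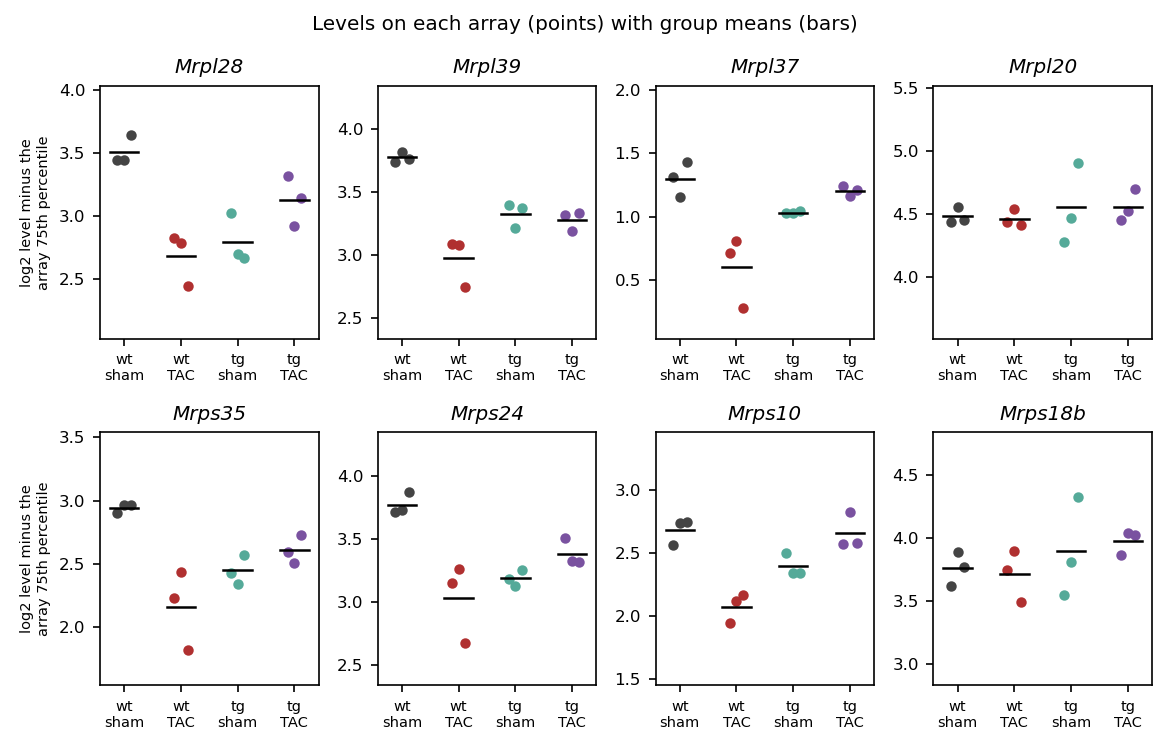
Levels of 8 genes on each of the 12 arrays as log2 signal minus the array's 75th percentile, with bars at the group means and every axis spanning 2 log2 units. In Mrpl28, Mrpl39, Mrpl37, Mrps35, Mrps24 and Mrps10 the wild-type TAC mean is lowest and the means of the transgenic groups lie between it and the wild-type sham mean, while Mrpl20 and Mrps18b show overlapping groups.

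Whether banding acted differently in the 2 genotypes was tested directly, as the transgenic TAC-minus-sham difference minus the wild-type one. Positive values mean that the transgenic difference was less negative or more positive. Of the 78 genes 77 were above 0, with a median of 0.54 beside 0.10 over all genes. A total of 13 were called higher and none lower, where 4.18% of all genes were called higher and 2.9% lower. They were 6 large-subunit genes, Mrpl18, Mrpl28, Mrpl37, Mrpl39, Mrpl41 and Mrpl50, and 7 with small-subunit symbols, Mrps10, Mrps14, Mrps18c, Mrps21, Mrps24, Mrps35 and Mrps36. All 13 were also among the 45 called lower in banded wild-type hearts, a difference that enters this test with its sign turned, and adjusted p ran from 0.0221 to 0.0498. In the same test 6 of 12 cardiomyocyte markers were called higher and 8 of 11 fibroblast markers lower, and their part in the result was not tested.

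Mrpl28 showed the largest difference between the genotypes (1.15 ± 0.22, adjusted p = 0.0228), made of -0.82 in wild-type and 0.33 in transgenic hearts. Mrps36 followed (1.00 ± 0.23, adjusted p = 0.0366), with transgenic levels of 4.30, 4.26 and 4.34 after sham and 4.62, 4.49 and 4.52 after TAC. There the transgenic TAC arrays lay above the transgenic sham arrays while the wild-type TAC arrays lay below their shams. Mrps35 (0.95 ± 0.22), whose transgenic TAC arrays read 2.59, 2.51 and 2.73, Mrps24 (0.94 ± 0.21), at 3.50, 3.32 and 3.32, Mrps10 (0.88 ± 0.16) and Mrpl37 (0.88 ± 0.20) came next. Mrpl18 read 3.83, 3.97 and 4.04 after sham and 3.50, 3.53 and 3.17 after TAC in wild-type hearts, and its difference between genotypes was 0.81 ± 0.18 (adjusted p = 0.0298). Mrps18c, at 2.86, 2.91 and 3.14 after sham and 3.11, 3.12 and 3.17 after TAC in transgenic hearts, was the called gene with the smallest value (0.54 ± 0.14, adjusted p = 0.0498). Nearest to 0 among genes above background were Mrpl33 (0.01 ± 0.16), Mrpl20 (0.03 ± 0.22), Mrps18b (0.13 ± 0.27), Mrps6 (0.15 ± 0.15) and Mrpl57 (0.16 ± 0.19), most of which had also been nearest to 0 in banded wild-type hearts.

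Over the 77 genes above background, wild-type sham had the highest of the 4 group means in 68 and wild-type TAC the lowest in 69, and both transgenic means lay between those of the wild-type groups in 60. None of the 78 genes was called between the transgenic groups or between the sham groups. The arrays did not overlap for 11 genes (14.1%) in the former, beside 8.44% of all genes. In the latter they did not overlap for 45 (57.7%), beside 22.2% of all genes. The number of genes called between the responses moved from 0 to 24 when single arrays were left out. It was 0 without the first or the third wild-type sham array or the first transgenic TAC array, 1 without the second wild-type sham or the first wild-type TAC array, 2 without the third transgenic TAC array, and 3 without the third wild-type TAC or the second transgenic sham array. It was 7 without the first transgenic sham or the second transgenic TAC array, 20 without the second wild-type TAC array and 24 without the third transgenic sham array, and the median stayed between 0.434 and 0.633. In these fits 0.233% to 5.36% of all genes were called higher, against 4.18% with all arrays. None of the 78 was called with quantile normalization, normexp or slide as a fixed term, 1 with scaling to the array median and 2 with no filter, while 45 were called over probes well above background on all 12 arrays, 34 with a trended robust variance and 22 in an unmoderated test, where 18.2%, 7.66% and 5.71% of all genes were called higher. For quantile normalization, normexp and slide as a fixed term the share of all genes called higher was 1.31%, 0% and 0%. It was 1.05% with scaling to the array median and 0.715% with no filter. With quantile normalization the median of the 78 genes was 0.346. With slide as a random block 14 of the 78 were called, where 4.19% of all genes were called higher, and the median was 0.547.

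Large-subunit and small-subunit genes had similar medians in every comparison. In banded wild-type hearts the medians were -0.49 over 49 large-subunit and -0.46 over 29 small-subunit genes. They were 0.08 and 0.10 for TAC in transgenic hearts, -0.27 and -0.29 for the genotypes after sham, and 0.28 and 0.32 for the genotypes after TAC. For the difference between the responses they were 0.53 and 0.54. The large-minus-small differences, from -0.0345 to 0.0163, were about the size of their spread between arrays of a group (SD 0.0319). Sorting the genes by structure, with Mrps18a and Mrps30 in the large subunit and Mrps36 in neither, left 51 and 26 genes and differences from -0.0343 to 0.0064. The share called lower in banded wild-type hearts was 26 of 49 for the large subunit and 19 of 29 for the small one, and the difference between these shares was not tested. By origin, 24 of 48 homologues of bacterial proteins and 20 of 29 mitochondria-specific proteins were called lower there, with medians of -0.46 and -0.49.

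Of the 78 genes 21 had a second probe. In banded wild-type hearts the 2 probes had opposite signs only for Mrpl15, at -0.39 for the tested probe, which read 3.36, 3.21 and 3.33 after sham and 2.98, 3.14 and 2.60 after TAC, and 0.05 for the other. For the difference between the responses signs differed in Mrpl15 (0.29 and -0.11), Mrps25 (0.63 and -0.12) and Mrpl41 (0.74 and -0.90). Mrpl41 is among the 13 called, so its call rests on the brighter of 2 probes that disagree.

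Mitoribosomal proteins with other names were also low in banded wild-type hearts. Of the 5 listed, 4 were called lower after TAC, where 12.5% of all genes were called lower. Dap3, a small-subunit protein that binds GTP, read 4.79, 4.87 and 4.94 after sham and 4.32, 4.27 and 4.12 after TAC (-0.63 ± 0.10, adjusted p = 0.00383). Ptcd3, a small-subunit protein with pentatricopeptide repeats, read 4.56, 4.62 and 4.70 after sham and 4.001, 4.37 and 3.71 after TAC (-0.60 ± 0.15, adjusted p = 0.0211). Neither gene's groups overlapped. Gadd45gip1, a large-subunit protein also called CRIF1 that guides insertion of new chains into the membrane, read 4.22, 3.72 and 4.35 after sham and 3.18, 3.35 and 3.25 after TAC (-0.84 ± 0.23, adjusted p = 0.0269). In transgenic sham hearts it read 3.35, 2.45 and 2.82, lower than wild-type sham by a called difference of -1.22 ± 0.23 (adjusted p = 0.0356), with a second array far below the rest. Aurkaip1 was called lower in banded wild-type hearts (-0.53 ± 0.11, adjusted p = 0.00865), and Chchd1 was not (-0.49 ± 0.18, adjusted p = 0.0825). The difference between the responses was called for Dap3 (0.70 ± 0.15, adjusted p = 0.0278) and Gadd45gip1 (1.43 ± 0.32, adjusted p = 0.0317).

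Factors that build or serve the mitoribosome were called less evenly. Of 21 assembly factors 5 were called lower after TAC in wild-type hearts and none higher, with a median of -0.37. They were the GTPases Eral1 (-0.78 ± 0.14, adjusted p = 0.00544), Mtg2 (-0.79 ± 0.16, adjusted p = 0.00733) and Gtpbp10 (-0.49 ± 0.09, adjusted p = 0.00694), the small-subunit factor Rbfa (-0.73 ± 0.14, adjusted p = 0.00678) and the large-subunit factor Malsu1 (-0.42 ± 0.13, adjusted p = 0.0474). Of 16 tested translation factors 8 were called lower in banded wild-type hearts, with a median of -0.41. Examples are the elongation factors Tufm (-0.65 ± 0.17, adjusted p = 0.0254) and Gfm1 (-0.38 ± 0.12, adjusted p = 0.0438), the recycling factors Gfm2 (-0.70 ± 0.15, adjusted p = 0.0113) and Mrrf (-0.47 ± 0.11, adjusted p = 0.0135), and Lrpprc (-0.51 ± 0.09, adjusted p = 0.00478), which stabilises mitochondrial messenger RNA. Lrpprc (0.64) and Gfm2 (0.99) were called for the difference between the responses.

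Of 7 genes for transcription of the mitochondrial genome 2 were called lower in banded wild-type hearts, the transcription factor Tfb2m (-0.35 ± 0.10, adjusted p = 0.0281) and Mterf2 (-0.61 ± 0.16, adjusted p = 0.0255). The packaging protein Tfam read 2.11, 2.12 and 1.80 after sham and 1.88, 2.15 and 1.52 after TAC, with overlap (-0.16 ± 0.19, adjusted p = 0.611), and the RNA polymerase Polrmt was not called either (-0.41 ± 0.13, adjusted p = 0.0541). Among 13 nuclear regulators of mitochondrial genes 3 were called lower and 1 higher. Beside both lists, 12.5% of all genes were called lower and 8.7% higher. Ppargc1a, the coactivator PGC-1alpha, read 4.92, 5.42 and 4.35 after sham and 3.63, 2.86 and 2.80 after TAC (-1.80 ± 0.37, adjusted p = 0.0084). Its partner receptor Esrra read 4.85, 4.99 and 4.95 after sham and 4.25, 4.26 and 4.15 after TAC (-0.71 ± 0.14, adjusted p = 0.00698). Both fell without overlap, as did the related receptor Esrrb (-0.47 ± 0.12, adjusted p = 0.0233), while Myc, a growth regulator, read -3.28, -3.31 and -3.97 after sham and -2.18, -1.66 and -0.998 after TAC and rose (1.91 ± 0.36, adjusted p = 0.00616). Of the factors whose letters were searched in the promoters, 3 were not called, with differences of 0.21 ± 0.13 for Nrf1 (adjusted p = 0.278), 0.04 ± 0.09 for Gabpa (adjusted p = 0.795) and -0.07 ± 0.09 for Yy1 (adjusted p = 0.653).

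Against related gene lists the mitochondrial ribosomal protein genes had medians between those of the respiratory chain and the cytosolic ribosome for TAC in wild-type hearts and for the difference between the responses. For TAC in transgenic hearts their median (0.09) lay above both (0.03 and -0.06). In banded wild-type hearts 76 of 83 respiratory chain genes were called lower and 1 higher, with a median of -0.72, and 16 of 86 cytosolic ribosomal protein genes were called lower and 1 higher, with a median of -0.28. The shares of all genes called there were 12.5% lower and 8.7% higher. For the difference between the responses 57 of 83 respiratory chain genes were called higher and 1 lower, with a median of 0.75. None of 86 cytosolic ribosomal protein genes was called, 14 having an unadjusted p under 0.05, with a median of 0.25. Of all genes 4.18% were called higher and 2.9% lower for that difference. The mitochondrial ribosomal protein genes, at -0.48 and 0.54, lay nearer to 0 than the cardiomyocyte markers (-0.75 and 0.68), whose part was not tested, and the differences between these lists were not tested.

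**Figure D5:**
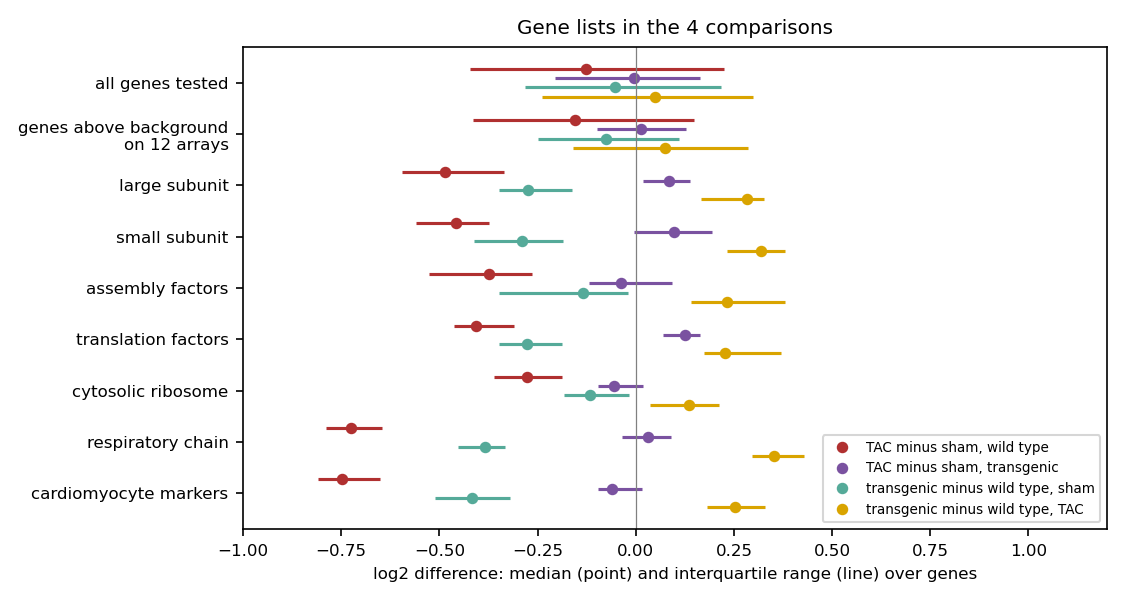
Median (points) and interquartile range (lines) of log2 differences over the genes of each list in 4 comparisons, 1 colour for each comparison. Large-subunit and small-subunit genes have nearly the same medians, -0.49 and -0.46 for TAC in wild-type hearts, between those of the cytosolic ribosome (-0.28) and the respiratory chain (-0.72).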

How the data were processed

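Each array was read on its own in 1 colour. Spot intensities were deposited by the authors as the scanner's processed signal (Agilent Feature Extraction 10.7.3.1, per the file headers), which already has local background subtracted and is not scaled between arrays. The deposited value table holds log2 values that correlate at 0.9993 to 0.9999 with the log2 scanner values of the same array, with column medians from -0.0949 to 0.121. The submitters' processing notes also name RMA, its scale and centring are not described in the sources used here, and the table served only as an alternative. From the processed intensity, log2 was taken and each array's 75th percentile over 43020 non-control spots subtracted. Outlier spots (107 to 286 per array) were left out and spots of 1 probe averaged, giving 39429 probes. Of these 26424 matched 20021 symbols through their RefSeq accessions, and the brightest probe stood for a gene. A gene was tested when its probe stood well above background on any 3 or more arrays, whatever their groups (25321 genes, unnamed accessions included).

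A limma 3.58.1 model (R 4.3.3) with 4 group means gave the 5 contrasts. limma's moderated test is two-sided, and p-values were adjusted with Benjamini-Hochberg. The number of arrays limits the precision. The script was tested on simulated data. All mitochondrial ribosomal protein genes could be named. Values by array are given for genes with a known special role and for the extremes of each comparison, 4 low and 2 high per subunit, some of these by difference only. The members, gene lists and tests were chosen with earlier results of these data known. Replicate numbers pair no samples in the labels. The alternatives were quantile or array median scaling, normexp, the deposited table, other filters, the mean over probes, other variance models, slide or replicate number as a block, and leaving out each array.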

Additional observations from a re-analysis of the deposited data

Results flagged for a closer look

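For 13 mitochondrial ribosomal protein genes the response to banding differed between the genotypes in the limma test of that difference itself. The values, as the transgenic TAC-minus-sham difference minus the wild-type one on the log2 scale, were 0.81 for Mrpl18, 1.15 for Mrpl28, 0.88 for Mrpl37, 0.76 for Mrpl39, 0.74 for Mrpl41 and 0.65 for Mrpl50 in the large subunit. Among small-subunit symbols they were 0.88 for Mrps10, 0.64 for Mrps14, 0.54 for Mrps18c, 0.82 for Mrps21, 0.94 for Mrps24, 0.95 for Mrps35 and 1.00 for Mrps36. The second probe of Mrpl41 gave -0.90. The calls depended on the setting. None was made with quantile normalization, normexp or slide as a fixed term, or without the first wild-type sham array. Over probes well above background on all 12 arrays 45 were made, where 18.2% of all genes were called higher. With slide as a random block 14 were made, where 4.19% of all genes were called higher.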

How the results depend on the processing

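The medians of the mitochondrial ribosomal protein genes kept their sign in all 5 comparisons under every alternative that was run, and the counts of called genes did not keep their size. For TAC in wild-type hearts the number called lower (45) was 16 with quantile normalization, 19 with array median scaling, 10 with normexp, 28 in a fit of the compared groups only and 0 with slide as a fixed block, and 12 to 53 when single arrays were left out. It was 57 over probes well above background on all 12 arrays, 54 with a trended robust variance and 50 in an unmoderated test. With slide as a random block it was 41, where 13.1% of all genes were called lower. The share of all genes called lower (12.5%) was 3.51% with normexp, 0.944% with slide as a fixed block, 28.2% over those probes and 6.26% to 14.8% without single arrays. The median of the 78 genes (-0.48) was -0.323 with quantile normalization, -0.636 with normexp and -0.336 with slide as a fixed block, and -0.571 to -0.365 without single arrays. The median for TAC in transgenic hearts (0.09) was 0.30 with slide as a fixed block, 0.017 with array median scaling, 0.0349 with normexp and 0.0323 to 0.179 without single arrays. Between the genotypes after sham the median was -0.142 with quantile normalization and -0.347 to -0.221 without single arrays. The number called lower (0) was 11 over probes well above background on all 12 arrays, 7 with a trended robust variance, 2 in an unmoderated test and 0 to 1 without single arrays. The share of all genes called lower was 6.27%, 2.52%, 1.53% and 0.0711% to 1.51% there, in the same order. Between the genotypes after TAC the number called higher (2) was 1 with quantile normalization, the deposited table or slide as a random block, 0 with array median scaling, normexp, no filter, the compared groups only or slide as a fixed block, 17 over probes well above background on all 12 arrays, 9 with a trended robust variance and 0 to 2 without single arrays, with medians of 0.177 to 0.372. The share of all genes called higher (2.14%) was 0.0869% to 1.16% under the settings with 0 calls. It was 12.5% over those probes, 4.98% with the trended robust variance and 0.411% to 2.83% without single arrays. For the difference between the responses the number called higher (13) was 0 with quantile normalization, normexp or slide as a fixed block, 1 with array median scaling, 2 with no filter, 45 over probes well above background on all 12 arrays, 34 with a trended robust variance, 22 in an unmoderated test and 0 to 24 without single arrays. The share of all genes called higher (4.18%) was 1.31% with quantile normalization and 0% with normexp or slide as a fixed block. It was 18.2% over those probes, 7.66% with the trended robust variance, 5.71% in the unmoderated test and 0.233% to 5.36% without single arrays. With slide as a random block 14 were called higher, where 4.19% of all genes were. The median of the 78 genes was 0.346 with quantile normalization and 0.434 to 0.633 without single arrays. The cause of these changes was not tested.

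The labels give no pairing by replicate number, and the values cannot decide it, because arrays with different numbers were not compared in the same way. Over 18 pairs of arrays with the same number, deviations from the group means correlated from -0.227 to 0.283, and 7 pairs exceeded 0.1. With the replicate number as a block, 31 genes were called lower by TAC in wild-type hearts, 0 were called higher between genotypes after TAC and 2 were called for the difference between the responses. The shares of all genes called in the same directions were 10.4%, 0.814% and 1.5%.

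The large-minus-small difference for TAC in wild-type hearts was 0.0262 with quantile normalization and -0.0297 to -0.0179 without single arrays. For TAC in transgenic hearts it was -0.0495 with normexp and -0.0485 to 0.0143 without single arrays, and for the genotypes after sham 0.0602 with normexp, 0.0583 with slide as a fixed block and -0.0182 to 0.0569 without single arrays. For the genotypes after TAC it was -0.0808 with normexp, turned to 0.00474 with slide as a fixed block, and was -0.0436 to -0.0336 without single arrays. For the difference between the responses it was -0.0683 with quantile normalization, 0.0545 with normexp and -0.0247 to 0.028 without single arrays. The difference between the responses of Mrpl41 turned to -0.0769 when its 2 probes were averaged. Single genes were followed for 92 results, from a selection of the named genes in every comparison but TAC in transgenic hearts. Over all alternatives 2090 outcomes kept their side of the threshold, 253 lost a call, 48 gained one and 1 reversed. Results that stayed uncalled are among the 2090, so these numbers do not give the share of calls that was lost.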
